A study of Homo sapiens with 24 samples.

Results

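The comparison described here sets control cerebral organoids against control neural progenitor cells (NPCs). Its members are the 8 libraries of the series' 24 that carry the label NC, 3 from organoids and 5 from NPCs, and it runs over the genes whose symbol occurs once in both deposited tables. RNA was poly(A)-selected, primed with random primers and sequenced. Both systems derive from the human embryonic stem cell line H9, given as wild type. Both carried the same agents: a lentivirus with a scrambled short hairpin RNA, added at a multiplicity of infection of 20, and puromycin selection at 1 µg/ml. The organoids were grown to day 30 by a modified form of the Lancaster method. The 16 other libraries, labelled sh1 and sh4 for hairpins against the histone demethylase KDM2A, are used below only as matched contrasts, 5 NPC and 3 organoid libraries per label. System and table, with any batch tied to them, are the same split of the samples. A difference between systems thus cannot be told apart from a difference between tables or batches. Whether the replicates were grown as separate cultures is not in the labels, so p-values reflect the scatter of the libraries alone, and that scatter may be technical.

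Neural progenitors are dividing cells of the neural epithelium, held in that state by SOX and PAX transcription factors and by Notch signalling. A cerebral organoid is a self-organised aggregate in which such progenitors, grouped around cavities as radial glia, give rise to neurons, and it can also hold non-neural epithelium, mesenchyme or undifferentiated cells. Interferon-stimulated genes, which recur below, encode sensors and effectors of antiviral defence and are switched on by the factor ISGF3 through a promoter element of paired GAAA blocks.

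The NPC table lists 10221 gene symbols and 61544 identifiers stand in the organoid table, and 10104 symbols were shared. Protein-coding members of the shared set make up 50.03% of RefSeq's protein-coding genes. They held 12.6 to 18.1 M counts in the control NPC libraries and 10.2 to 11.2 M in the control organoid libraries, which were 99.2 to 99.3% and 64.1 to 64.4% of each library's deposited counts. Values below are CPM, counts scaled by TMM to a common total of the shared genes, and log2 fold changes are organoids over NPCs. Among the genes tested, 97.49% passed an adjusted p of 0.05 in edgeR's quasi-likelihood test between the NPC libraries labelled sh1 and those labelled NC, so the shared genes are not a neutral sample of the transcriptome. SOX2, VIM and STMN2 are not among the shared genes. In the organoid table alone they stood at 196 to 230, 2037 to 2428 and 594 to 707 CPM of all deposited counts.

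Of 9879 genes tested, 3156 were called, that is 31.9% (edgeR's quasi-likelihood test, Benjamini-Hochberg adjusted p under 0.05 and a log2 fold change of at least 1 in size). Higher in organoids were 1731 genes (17.5%), and lower were 1425 (14.4%). These shares are the background for each list count below. The libraries of both systems did not overlap for 7582 genes (76.7%). The median log2 fold change of all genes tested was -0.01. In these bulk libraries fewer cells of a type and less RNA per cell cannot be told apart. EEF1A1, the translation elongation factor, was named as one of 6 abundant genes of near-equal level in both systems. It had 23012, 25330, 23693, 25032 and 26344 CPM in NPCs and 25080, 24732 and 25207 CPM in organoids, with a log2 fold change of 0.02 (SE 0.063). The neuronal form of that factor, EEF1A2, had the highest fold change of the genes with at least 10 counts in every library and a mean log2 CPM from 3 upwards. It had 1.19, 0.891, 1.11, 0.898 and 1.81 CPM in NPCs and 324, 279 and 272 CPM in organoids, a log2 fold change of 7.94 (SE 0.129). KDM2A, the gene targeted elsewhere in the study, had 176 to 219 CPM in NPCs and 160 to 173 CPM in organoids. Its log2 fold change of -0.28 (SE 0.070) had an adjusted p of 0.00311 in edgeR's test and did not reach the fold threshold.

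Promoters of 5 interferon-list genes are shown because they hold the same element while the genes differed between systems in opposite directions. IFIT3, IFIT1 and IFIH1 were lower in organoids, and BST2 and IFITM1 were higher. They were chosen for holding it: of 2 further lower genes examined, IFI44 had 1 match and MX1 had none. The 250 bases before each start are shown 5′ to 3′ on the gene's strand from RefSeq (GRCh38.p14), with matches to GAAANNGAAA or its reverse complement TTTCNNTTTC in capitals. Overlapping matches run together.
IFIT3 (chr10:89327747-89327996, plus strand): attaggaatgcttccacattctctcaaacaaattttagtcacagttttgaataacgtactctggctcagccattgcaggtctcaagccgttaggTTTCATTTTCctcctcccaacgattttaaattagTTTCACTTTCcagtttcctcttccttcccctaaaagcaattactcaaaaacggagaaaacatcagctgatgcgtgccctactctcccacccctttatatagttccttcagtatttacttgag
IFIT1 (chr10:89392373-89392622, plus strand): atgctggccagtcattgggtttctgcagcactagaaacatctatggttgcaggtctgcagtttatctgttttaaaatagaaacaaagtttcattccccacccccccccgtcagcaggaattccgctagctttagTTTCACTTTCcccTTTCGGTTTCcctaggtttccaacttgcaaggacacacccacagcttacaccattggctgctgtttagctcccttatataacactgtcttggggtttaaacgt
IFIH1 (chr2:162318685-162318934, minus strand): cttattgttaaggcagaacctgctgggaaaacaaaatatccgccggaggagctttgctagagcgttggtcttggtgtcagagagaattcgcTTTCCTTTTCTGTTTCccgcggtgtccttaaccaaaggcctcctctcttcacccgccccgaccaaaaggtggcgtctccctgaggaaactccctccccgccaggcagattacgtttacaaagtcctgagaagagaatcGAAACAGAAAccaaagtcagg
BST2 (chr19:17405631-17405880, minus strand): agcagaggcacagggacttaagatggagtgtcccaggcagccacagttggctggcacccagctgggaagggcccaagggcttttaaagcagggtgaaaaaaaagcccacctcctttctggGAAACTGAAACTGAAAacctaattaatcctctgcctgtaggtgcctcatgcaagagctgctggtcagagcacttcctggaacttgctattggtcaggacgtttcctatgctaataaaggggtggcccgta
IFITM1 (chr11:313790-314039, plus strand): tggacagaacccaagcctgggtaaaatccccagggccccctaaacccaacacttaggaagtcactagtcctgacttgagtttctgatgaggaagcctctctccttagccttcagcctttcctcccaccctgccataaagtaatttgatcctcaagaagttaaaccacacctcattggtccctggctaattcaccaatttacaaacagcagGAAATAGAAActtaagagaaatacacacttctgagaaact

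The interferon list was on balance lower in organoids. Of its 34 tested members, 18 were lower (52.9%, against 14.4% of all genes tested) and 3 higher (8.82%, against 17.5%). The median log2 fold change was -1.52 against -0.01 over all genes. IFIT2 encodes an RNA-binding antiviral protein and lies at chr10:89283694-89309276 beside IFIT3 and IFIT1 (GENCODE release 29, GRCh38). It had 1217, 961, 1319, 1043 and 650 CPM in the NPC libraries and 0.917, 1.06 and 1.35 CPM in the organoids. No library of either system came near the other, and the log2 fold change was -9.86 (SE 0.343). IFIT3 had 297, 277, 335, 298 and 230 CPM in NPCs and 2.94, 1.68 and 1.93 CPM in organoids, a log2 fold change of -7.04 (SE 0.186). IFIT1 had a log2 fold change of -5.45, and IFIH1, the cytoplasmic sensor of double-stranded RNA also called MDA5, one of -6.22. OASL, a relative of the oligoadenylate synthetases, had 128 to 159 CPM in NPCs and no count in any organoid library. Against a floor of 3 counts per library it was at least 527-fold lower in organoids. The ubiquitin-like modifier ISG15 was lower by less, with 174 to 290 CPM in NPCs and 41.7 to 46 CPM in organoids.

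Among the 3 members higher in organoids were BST2 and IFITM1. BST2, or tetherin, which holds budding virus particles on the cell surface, had 20.1, 24.4, 21.9, 24.5 and 24.1 CPM in NPCs and 272, 293 and 251 CPM in organoids (log2 fold change 3.56, SE 0.075). IFITM1, a membrane protein that blocks virus entry, was higher at a log2 fold change of 2.06 (SE 0.071). The transcription factors STAT2 and IRF9 had log2 fold changes of -0.94 and -0.55 and were not called.

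Over the 9879 genes tested, 7985 had a promoter in the table and 2.58% of these held the GAAANNGAAA letters within the 250 bases. The share was 4.80% of 1145 genes lower in organoids, 2.00% of 1298 genes higher and 2.26% of 5542 genes not called. Among the interferon list it was 11 of 14 members lower in organoids and 7 of 13 of the other members. Both BST2 and IFITM1, higher in organoids, hold the letters in the promoters printed above. A search for CACGTG, the E-box that MYC binds, found it in 8.87% of all tested promoters, 7.69% of those lower and 6.93% of those higher. These matches describe letters and not binding.

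**Figure D1:**
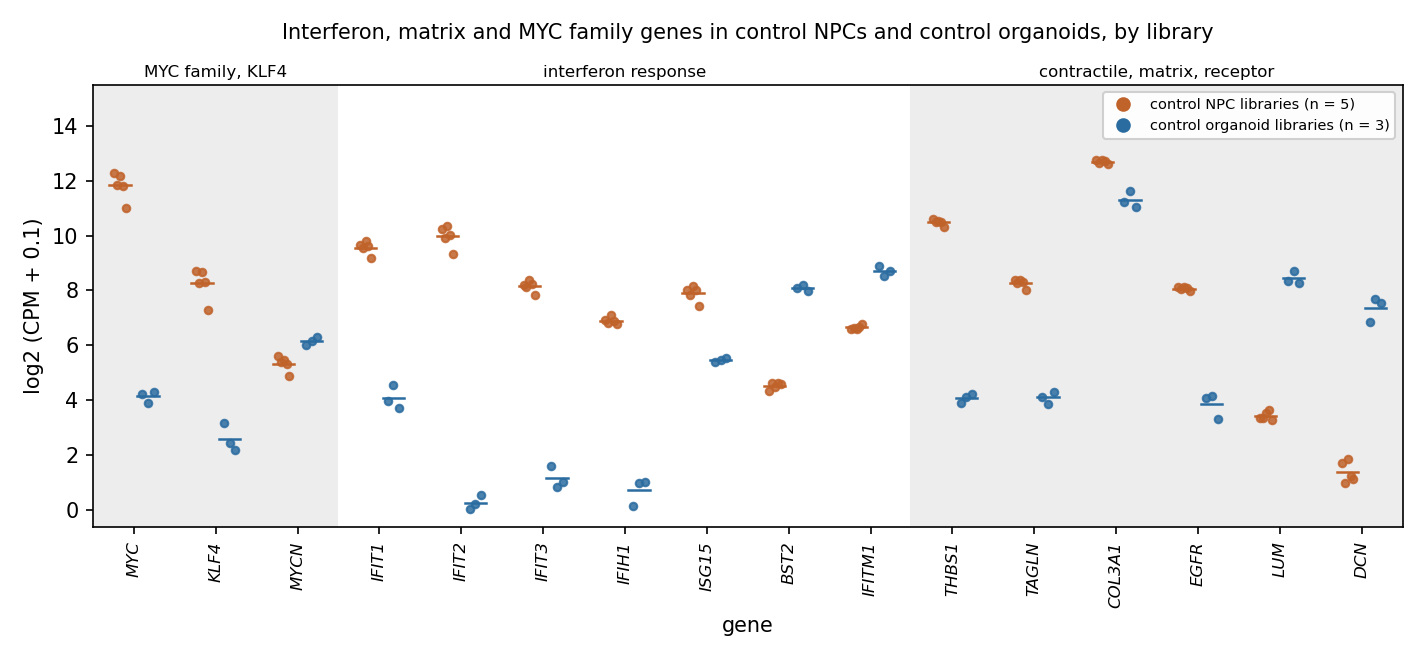
Level of MYC family, interferon and matrix genes in each control library, as log2 of CPM plus 0.1 on the vertical axis, by gene on the horizontal axis. Points are libraries and short lines group means (5 NPC, 3 organoid). MYC, KLF4 and most interferon genes sit far higher in NPCs, whereas BST2, IFITM1, LUM and DCN sit higher in organoids.

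MYC, a transcription factor that drives growth and is used with KLF4 in reprogramming to pluripotency, had 4940, 3710, 4657, 3598 and 2074 CPM in NPCs. The organoid libraries had 18.6, 14.7 and 19.6 CPM. The lowest NPC library, NC replicate 5, still lay far above every organoid library, and the log2 fold change was -7.75 (SE 0.328). KLF4 had 421, 312, 408, 317 and 158 CPM in NPCs and 8.81, 5.3 and 4.45 CPM in organoids, again lowest among NPCs in replicate 5. The paralogue MYCN went the other way without reaching the fold threshold, with 29.4 to 49 CPM in NPCs and 64.2 to 78.2 CPM in organoids. Of 23 tested genes of the MYC family and ribosome biogenesis, 3 were lower (MYC, DDX21 and MRTO4) and none was higher, with a median of -0.26. That lower share of 13.04% is near the 14.4% of all genes tested. The log2 fold change of DDX21 was -1.03, at the edge of the threshold, and its call was lost by library size alone. None of 10 cytoplasmic ribosomal protein genes was called.

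Pluripotency genes were not uniformly lower in organoids. Of 21 tested, 10 were higher (47.6%, against 17.5% of all genes tested), 3 lower (14.3%, against 14.4%) and 8 not called. NANOG, a core pluripotency factor, had 0.734, 1, 0.711, 1.14 and 1.69 CPM in NPCs and 37.8, 20 and 21.5 CPM in organoids, a log2 fold change of 4.61 (SE 0.273). TDGF1, the NODAL co-receptor, had 0.553 to 1.52 CPM in NPCs and 143, 90.7 and 101 CPM in organoids. ZFP42 (REX1) was higher by 6.64, ZSCAN10 by 6.53 and the de novo DNA methyltransferase DNMT3B by 2.37 on the log2 scale. NANOG has processed pseudogenes of near-identical sequence, as has POU5F1, so how reads were assigned is uncertain for both.

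POU5F1 (OCT4), which pluripotent cells require, was present in both systems. It had 446, 370, 466, 397 and 246 CPM in the NPC libraries and 513, 310 and 327 CPM in the organoid libraries. The groups overlapped, and the log2 fold change was -0.01 (SE 0.200, adjusted p = 0.978 in edgeR's test). LIN28A, an RNA-binding protein that blocks let-7 maturation, had 471 to 688 CPM in NPCs and 355 to 422 CPM in organoids. SALL4, at a log2 fold change of 0.05, and DPPA4, at 0.95, were not called either. None of 13 genes of the LIN28 and let-7 axis was called. Both systems therefore carried RNA assigned to pluripotency genes beside RNA of neural markers, and the cells that held it were not identified.

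Neural progenitor markers of the NPC libraries were uneven. NES, the progenitor intermediate filament nestin, had 2404, 2295, 2381, 2224 and 2326 CPM in NPCs and 856, 860 and 919 CPM in organoids, a log2 fold change of -1.41 (SE 0.055). CDH2 (N-cadherin) had 856 to 879 CPM in NPCs and 387 to 427 CPM in organoids. By contrast, PAX6, the factor that marks dorsal forebrain progenitors, had 18.3, 18.2, 17.4, 17 and 21.2 CPM in NPCs and 274, 237 and 340 CPM in organoids (log2 fold change 3.94, SE 0.109). SOX1 had 12.8 to 15.1 CPM in NPCs and 85.4 to 97.9 CPM in organoids. HES5, a direct Notch target, was at 0.334 to 1.07 CPM in NPCs and at 48.6 to 75.1 CPM in organoids. EMX2 and FABP7, markers of cortical radial glia, were higher in organoids by 5.90 and 4.60 on the log2 scale. In all, 13 of 23 tested radial glia genes were higher (56.52%, against 17.5% of all genes tested), with a median of 1.28. Lower were 3 (13.04%), a share near the 14.4% of all genes tested.

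Of 15 tested Notch genes 11 were higher (73.3%, against 17.5% of all genes tested) and 2 lower (13.3%, against 14.4%). Their median was 1.79. The ligand DLL1 had 15.7 to 19.7 CPM in NPCs and 143 to 150 CPM in organoids. The receptor NOTCH1 had 88 to 165 and 432 to 466 CPM. The ligand JAG1 was lower, at 375 to 497 CPM in NPCs and 93.2 to 100 CPM in organoids, and NOTCH2 was lower by a log2 fold change of -1.25.

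Neuronal genes were higher in organoids almost throughout. Of 17 tested neuron genes 15 were higher (88.2%, against 17.5% of all genes tested), with a median log2 fold change of 3.02. Of 12 neurogenesis genes 10 were higher (83.3%), with a median of 2.41. DCX, the microtubule-binding protein of migrating young neurons, had 52.6, 57, 46.2, 55.1 and 53.7 CPM in NPCs and 1417, 1258 and 1334 CPM in organoids. Its log2 fold change was 4.66 (SE 0.071). RTN1 had 1.75, 2.51, 2.84, 1.98 and 1.92 CPM in NPCs and 226, 217 and 244 CPM in organoids. RELN, the glycoprotein secreted by Cajal-Retzius neurons of the cortical surface, had 0.613 to 2.92 CPM in NPCs and 307, 401 and 266 CPM in organoids. The bHLH factor NEUROD1 varied among organoids, at 18.5, 48.7 and 29.1 CPM, yet all were above the NPC libraries at 1.41 to 1.81 CPM.

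MAP2, a dendritic microtubule protein, was the only neuron gene called lower in organoids, and 1 of 2 with a negative log2 fold change. It had 1832, 2006, 1820, 1959 and 2330 CPM in NPCs against 799, 736 and 753 CPM in organoids. TUBB3 was already at 328 to 442 CPM in NPCs and at 1315 to 1390 CPM in organoids. Synaptic genes were higher for 14 of 20 (70%, against 17.5% of all genes tested). They were lower for 2 (10%, against 14.4%), GRIN2A and GRIA1. GRIA1, an AMPA receptor subunit, had 478 to 502 CPM in NPCs and 60.6 to 68.7 CPM in organoids. SHANK1, a postsynaptic scaffold, had at most 2 counts in any control NPC library and 409 to 497 counts in the organoid libraries. Of 15 voltage-gated channel genes 9 were higher (60%) and none lower. Of 17 neuronal splicing and RNA regulators 11 were higher (64.7%) and none lower. One of the 11, ESRP1, is an epithelial splicing factor.

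**Figure D2:**
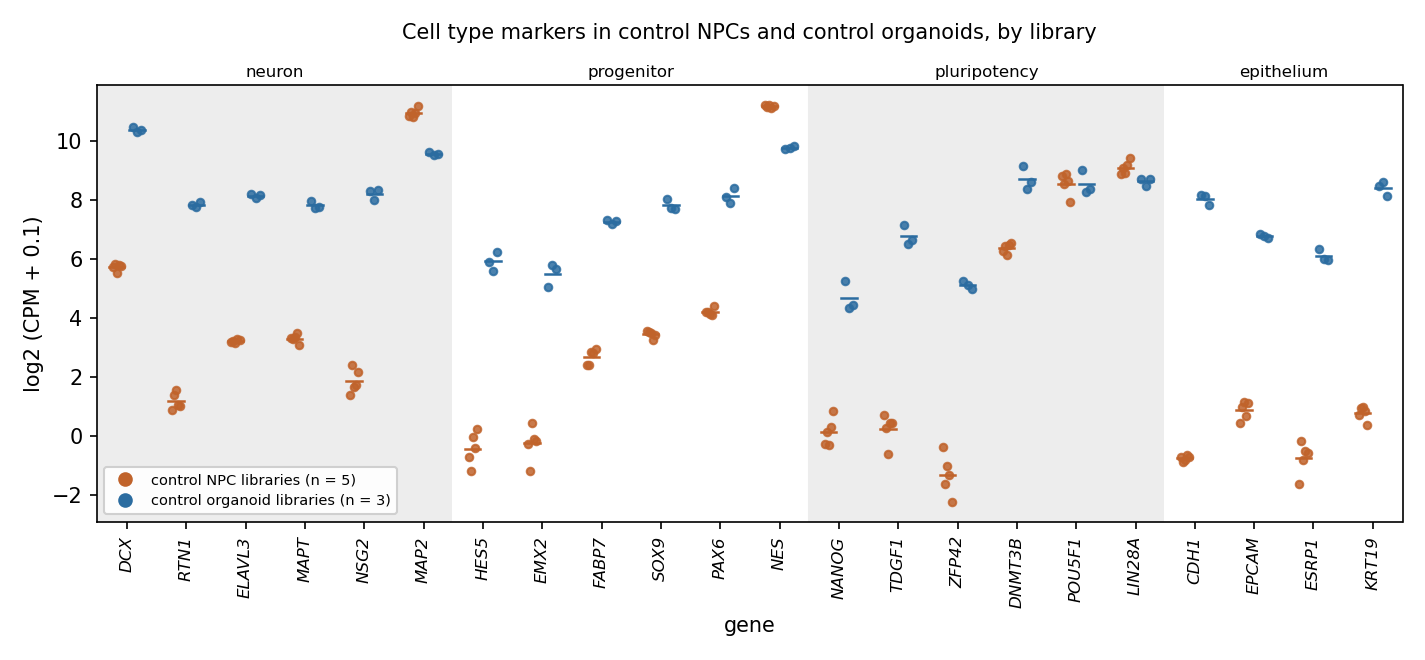
Cell type markers in each control library, as log2 of CPM plus 0.1 on the vertical axis and by gene on the horizontal axis. Points are libraries and short lines group means (5 NPC, 3 organoid). Neuron, radial glia and epithelial genes sit higher in organoids except MAP2 and NES, while POU5F1 overlaps between systems.

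Regional genes separated within the forebrain lists. All 5 tested ventral forebrain genes were higher in organoids (100%, against 17.5% of all genes tested), but the list names 20 genes. Outside the forebrain, 8 of 13 tested midbrain, hindbrain and HOX genes were also higher (61.5%) and 2 lower (15.4%, against 14.4%). DLX5, a factor of GABAergic neurons, had 0.316 to 1 CPM in NPCs and 77.8, 59.3 and 67.7 CPM in organoids. Dorsal forebrain genes divided into 7 higher (50%, against 17.5% of all genes tested) and 6 lower (42.9%, against 14.4%) of 14. LHX2 had 7.89 to 10.5 CPM in NPCs and 90.5 to 104 CPM in organoids, whereas the nuclear factor I genes were lower. NFIX had 9.59 to 16.1 and 0.53 to 0.677 CPM, and NFIB had 57 to 64.3 and 11.9 to 15.4 CPM. Axon guidance genes likewise divided, with 14 of 29 higher (48.3%) and 7 lower (24.1%). The attractant NTN1 had 2.93 to 3.71 CPM in NPCs and 40.5 to 52.9 CPM in organoids, and the repellent SEMA3A had 359 to 476 and 76.5 to 85.5 CPM.

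Epithelial genes were among those with the widest separation, 11 of 13 higher (84.6%, against 17.5% of all genes tested) with a median of 2.55. CDH1 (E-cadherin, chr16:68737225-68835548) had 0.508, 0.446, 0.474, 0.539 and 0.508 CPM in NPCs and 291, 279 and 226 CPM in organoids, a log2 fold change of 9.04 (SE 0.124). EPCAM had 1.24 to 2.13 and 105 to 116 CPM. KRT19, a keratin of simple epithelia, had 1.18 to 1.89 and 281 to 386 CPM. All 6 tested mesoderm and endoderm genes, of 19 on the list, were higher in organoids too (100%, against 17.5% of all genes tested). The choroid plexus and liver transport protein TTR varied widely in organoids, at 15.7, 110 and 29.4 CPM.

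Mesenchymal and matrix genes were divided: 11 of 21 were higher in organoids (52.4%, against 17.5% of all genes tested) and 6 lower (28.6%, against 14.4%). The small proteoglycan LUM had 10, 9.97, 11.5, 12.5 and 9.53 CPM in NPCs and 327, 422 and 311 CPM in organoids, and DCN was higher by 6.05 on the log2 scale. Lower in organoids were TAGLN, a member of this list, and THBS1, a matrix gene that is not on it. THBS1 (thrombospondin) had 1560, 1433, 1475, 1458 and 1278 CPM in NPCs and 14.7, 17.1 and 18.7 CPM in organoids (log2 fold change -6.42, SE 0.106). TAGLN (transgelin) had 261 to 330 CPM and 14.6 to 19.7 CPM. The fibrillar collagen COL3A1 was high in both systems, at 6222 to 6998 CPM in NPCs and 2088 to 3200 CPM in organoids. IGF2, a growth factor of choroid plexus and mesenchyme that is not on this list either, had 24.2 to 28.8 CPM in NPCs and 2582, 3054 and 2481 CPM in organoids. Of 9 endothelial genes 4 were higher (44.4%) and 1 lower (11.1%). KDR, among the higher ones, had 7.89 to 13.1 and 169 to 246 CPM. CDH5, the defining endothelial cadherin, was lower by a log2 fold change of -1.20.

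Of 25 tested FGF and MAPK feedback genes 12 were higher in organoids (48%, against 17.5% of all genes tested) and 4 lower (16%, against 14.4%). FGF19, a ligand, had 0.0557 to 0.158 CPM in NPCs and 16.5, 19.3 and 14.4 CPM in organoids. ETV5, a transcription factor induced by FGF signalling, had 21.5 to 23.6 and 73.4 to 84.2 CPM. The receptors EGFR and ERBB4 were lower in organoids. EGFR had 277, 265, 277, 273 and 251 CPM in NPCs and 16.6, 17.7 and 9.96 CPM in organoids (log2 fold change -4.18, SE 0.136), and ERBB4 had 289 to 320 and 31.8 to 43.3 CPM. The feedback phosphatase DUSP6, at a log2 fold change of 0.13, was not called.

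None of 26 S phase genes was higher and 5 were lower (19.2%, against 14.4% of all genes tested), with a median of -0.73. None of 24 mitosis genes was higher and 2 were lower, a share of 8.33% that is below that of all genes, with a median of -0.35. MKI67, the proliferation antigen, had 680 to 736 CPM in NPCs and 297 to 330 CPM in organoids. Glycolysis and hypoxia genes were higher for 10 of 19 (52.6%, against 17.5% of all genes tested) and lower for 1 (5.26%). The glucose transporter SLC2A1 had 147 to 162 CPM in NPCs and 754 to 917 CPM in organoids, and LDHA, which makes lactate, had 185 to 265 and 730 to 784 CPM. Of 21 unfolded protein and integrated stress response genes 6 were lower (28.6%, against 14.4% of all genes tested) and none higher. They included the ATF4 targets TRIB3 and ASNS, at 145 to 258 and 472 to 824 CPM in NPCs and 37.4 to 47.9 and 206 to 215 CPM in organoids.

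**Figure D3:**
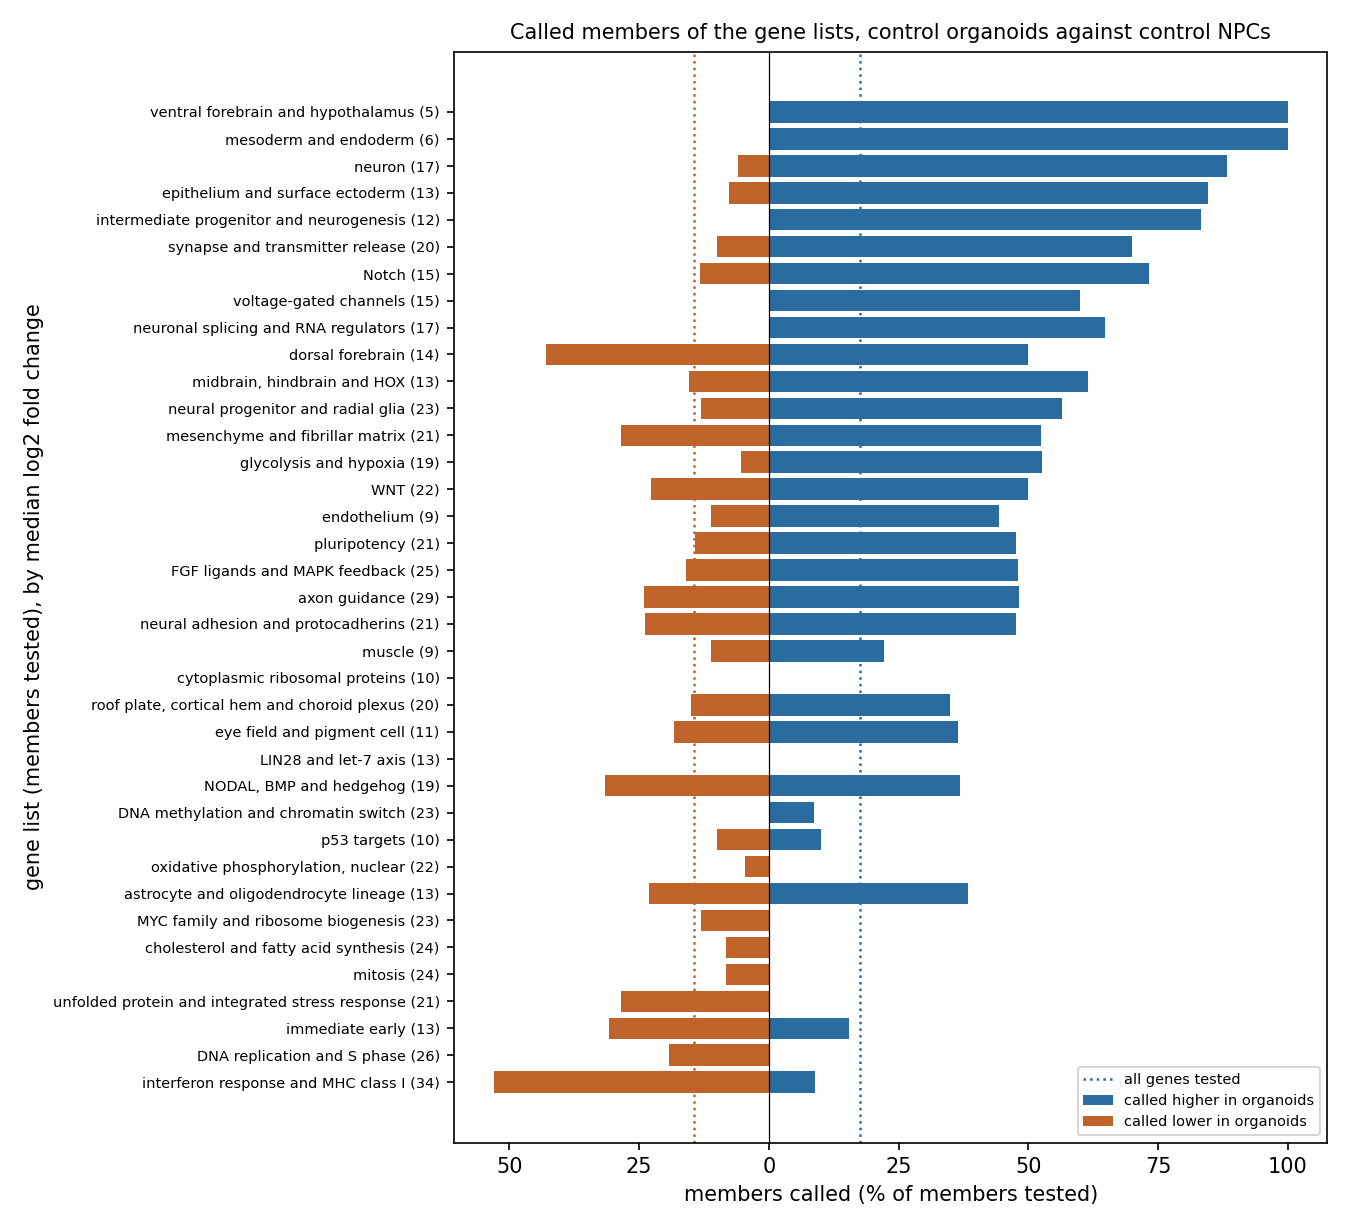
Share of the tested members of each gene list called higher (blue, right) or lower (orange, left) in control organoids, in percent of members tested, with the number tested in brackets. Lists with at least 5 tested members are ordered by median log2 fold change, and dotted lines mark all genes tested, 17.5% higher and 14.4% lower. Ventral forebrain, mesoderm and endoderm, neuron and epithelium lists stand at the top and the interferon list at the bottom.

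Some called genes were near absence in one system. At most 3 counts in every control NPC library were found for 36 genes called higher in organoids, and at most 3 counts in every control organoid library for 94 genes called lower. Such genes passed the count filter only through the other system, which fixed their direction. They were all the tested genes of this kind, so these counts are no evidence beyond the filter. Of the 94, 33 also had at most 3 counts in all 9 organoid libraries, and 1 of the 36 had so in all 15 NPC libraries. The NPC table lists only part of the genes, so the 33 and the 1 cannot be compared between systems. The zinc finger gene ZNF680 had 31.3 to 39.4 CPM in NPCs and no count in any control organoid library, which makes it at least 126-fold lower against a floor of 3 counts per library. The cancer-testis antigen MAGEA3 had 92.4 to 95.9 CPM in NPCs and 1 count in each control organoid library. It has near-identical copies, so its counts are uncertain. SNURF, which shares its transcript with SNRPN, had 160 to 187 CPM in NPCs and 1.35 to 3.3 CPM in organoids, and the sources used here do not give how overlapping genes were counted. The tables use different gene naming, and whether both counted the same gene models was not tested.

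The comparison could be set beside the same one in libraries that share no sample with it. Those libraries stand in the same tables, so they share the confounding of system and table. Organoids labelled sh1 against NPCs labelled sh1 gave 39% of 10020 genes called, and sh4 gave 42.6%. KDM2A itself was lower in NPCs with these labels, at 91.2 to 105 CPM, but stood at 143 to 178 CPM in the organoids so labelled, against 160 to 173 CPM in control organoids. CPM of libraries labelled sh1 or sh4 were scaled over all 24 libraries, and those of controls over the 8 control libraries. In the organoids the targeted gene thus goes against the labels sh1 and sh4, so the matched and interaction values below compare libraries as labelled and not known knockdowns. Of the 1731 genes higher in control organoids, 1229 (71.0%) were also higher with sh1 and 1091 (63.0%) with sh4, which were 55.3% and 45.0% of the genes higher there. As background, among genes tested in controls and with these labels (at most 9879), 2222 were higher with sh1 and 2426 with sh4. Of the 1425 lower, 684 (48%) and 608 (42.7%) were also lower, 43.5% and 35.3% of the genes lower there. Among the same background genes, 1572 were lower with sh1 and 1724 with sh4. All 3 labels shared 1006 higher and 530 lower genes. The opposite call was made with sh1 for 68 of the higher and 152 of the lower genes, and with sh4 for 110 and 261.

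Where the organoid minus NPC difference itself depended on the label was tested as an interaction, and 3451 of 10020 genes (34.4%) were called. The interaction includes the difference between labels within NPCs. Of the genes tested in controls, 97.49% passed the adjusted p threshold between NPCs labelled sh1 and NC, as given above. The shared genes are thus not a neutral sample for the interaction, and 34.4% cannot be read as a share of the transcriptome. In the libraries labelled sh1, MYC and IFIT2 had log2 fold changes of -4.30 and -4.87, against -7.75 and -9.86 in controls. Log2 fold changes of controls come from the fit of the control libraries alone, those of sh1 and sh4 from the fit of all groups. NPC MYC was 487 to 794 CPM in the libraries labelled sh1 or sh4. CDH1 was higher in organoids with each label, with log2 fold changes of 6.79 (sh1) and 9.65 (sh4), and its interaction of 0.80 (SE 0.51) had an adjusted p of 0.148 in edgeR's test. POU5F1 had log2 fold changes of -7.14 with sh1 and -7.05 with sh4, against -0.01 in controls, and its interaction of 7.07 (SE 0.35) had an adjusted p of 8.99e-15 in edgeR's test. PAX6 was higher by 3.94 in control organoids, by 1.94 with sh4, and had a log2 fold change of -0.41 with sh1.

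A shift along one chromosome was seen in all 3 labels. All labels rest on the same tables, so their likeness cannot tell a difference between systems from one between tables. Among the 6143 genes with a mean log2 CPM of at least 5, the 321 on chromosome 19 had a median log2 fold change of 0.30 in controls, 0.27 with sh1 and 0.28 with sh4. The other 22 chromosomes had medians from -0.21 to 0.05 in controls. The 49 ZNF genes of chromosome 19 and its 272 other genes had medians of 0.30 each. By position, 5 of its 6 windows of 10 Mb were positive, from 0.06 to 0.42, and the window from 20 to 30 Mb, with 11 genes, was at -0.25. On chromosome X the medians ranged from -0.71 at 20 to 40 Mb to 0.75 at 60 to 80 Mb. Copy number, base composition and gene models were not tested.

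**Figure D4:**
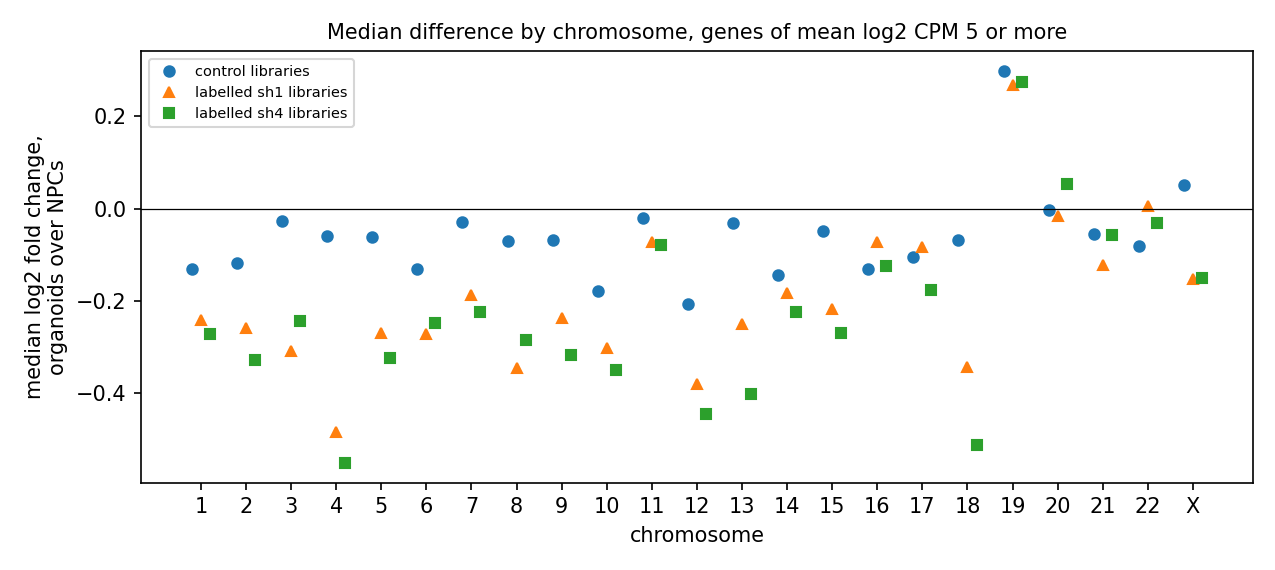
Median log2 fold change, organoids over NPCs, on the vertical axis by chromosome on the horizontal axis, for genes with a mean log2 CPM of at least 5. Circles are control, triangles sh1 and squares sh4 libraries. Chromosome 19 lies at 0.27 to 0.30 for every label.

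Spread among libraries of a group was ranked over genes with a mean of at least 50 CPM in that group. In the NPCs, VCAM1, FST, DDX60 and GPCPD1 had coefficients of variation from 33.7 to 38.5%, each highest in replicate 5. DDX60, an interferon-induced helicase, had 46.8, 74.5, 44.6, 67.8 and 108 CPM there, and 5.5 to 7.16 CPM in organoids. In the organoids PLAT, AQP1, APOB and TTR had coefficients of 52.2 to 98.4%, each highest in replicate 2. AQP1, a water channel of choroid plexus, had 96.8, 202 and 80.2 CPM in organoids and 1.92 to 3.61 CPM in NPCs.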

How the data were processed

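RNA-seq libraries of the 5 control NPC and 3 control organoid samples were compared. The authors deposited 1 table of expected counts per system; 82.36% of NPC and 91.04% of organoid values were whole, and all were rounded. STAR, featureCounts and GRCh38.p13 were used per the submitters' processing notes; settings, strand and the origin of fractions are not given in the sources used here. Of the NPC symbols, 14 occurred more than once in the organoid table and 103 were not found.

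Genes were filtered with filterByExpr (minimum count 10), scaled by TMM and tested with edgeR 4.0.16 in R 4.3.3, adjusted by Benjamini-Hochberg. The sh1, sh4 and interaction contrasts came from 1 fit of 6 groups, and the control contrast from a fit of the control libraries alone. DESeq2 1.42.0, other scalings and filters, a tested fold threshold (glmTreat) and left-out libraries were alternatives. On simulated counts for 9843 genes, 96% of 2-fold and 100% of 4-fold changes were recovered by adjusted p and sign, with 13 false calls. Recovery did not require the fold threshold used for calls. The median log2 size of the 2-fold changes was 0.973, below that threshold of 1, so the 96% does not apply to the calling rule. Control totals of 10.2 to 18.1 M shared counts set the precision.

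Members and gene lists were chosen with earlier results of these data known. Named genes were KDM2A, the 12 highest and 12 lowest fold changes (at least 10 counts in every library), 8 per direction near absence in one system, up to 5 called and 2 uncalled members per list, 6 genes of near-equal level, 4 per direction with the largest interaction and 4 per system with the widest spread at a mean of at least 50 CPM. Other list members were chosen after their values were seen. A few picked genes are not reported here but stay in the counts. Promoter sequences came from RefSeq (GRCh38.p14) and gene positions from GENCODE release 29. No replicate numbers were taken as pairs.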

Additional observations from a re-analysis of the deposited data

Results flagged for a closer look

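Within the 5 control NPC libraries, 12 of 259 genes examined had 1 library set apart by its gap to the nearest other, as a share of the group's range, above Dixon's value of 0.71. Chance flags about 1 in 20 such groups. Replicate 5 was the library in 8 of the 12: DES at 0.887, PTPRZ1 at 0.883, SPARC at 0.738, NSD2 at 0.737, HSPA5 at 0.733, KIF26A at 0.728, FLT1 at 0.725 and TAGLN at 0.72. It was high for PTPRZ1, KIF26A and FLT1 and low for the others. Replicate 2 was low for ETV5 at 0.918, EMP1 at 0.841 and DCC at 0.771, and replicate 4 high for NDRG1 at 0.759.

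In 8 genes the organoid minus NPC contrast differed most between NC and the mean of sh1 and sh4, by the interaction in edgeR's quasi-likelihood test, given on the log2 scale. NANOG differed by 12.6, ALPG by 9.61, ZSCAN10 by 9.08 and GALP by 8.9. NANOG had 20 to 37.8 CPM in control organoids and at most 0.176 CPM in any organoid library labelled sh1 or sh4. The fitted value of GALP depends on the prior count, since organoids labelled sh1 had no count of it. Sizes for NANOG, ALPG and APOB also rest on groups near the floor. ALPG had a mean of 0.138 CPM in organoids labelled sh1. APOB had means of 0.235 and 0.0547 CPM in NPCs labelled sh1 and sh4. IGFN1 differed by -9.15, TTR by -8.47, APOB by -8.42 and PKHD1L1 by -8.25. TTR had 15.7 to 110 CPM in control organoids and 981 to 11809 CPM in the organoids labelled sh1 or sh4.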

How the results depend on the processing

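The counts of called genes stayed within 1.5 times of 3156 under other scalings, filters, tools and left-out libraries; without each replicate in turn they ranged from 3117 to 3222, with 1713 to 1764 higher and 1404 to 1482 lower. The exception was the restriction to genes with little sh1 change in NPCs, where 841 of 4929 genes (17.1% against 31.9%) were called, 411 higher and 430 lower; the cause was not tested. Of 207 called named genes, 193 kept their call in every alternative that could test them. No named gene that was called in the main or the alternative fit reversed in sign. Sign changes of named genes called in neither fit were not counted. Replicate numbers did not pair the samples (correlations of -0.01, -0.10 and -0.06); with a replicate block 3176 genes were called, 1734 higher and 1442 lower, and the matched and interaction counts were 3927, 4275 and 3453.

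Medians of some lists changed sign, and the cause was not tested. Among genes with little sh1 change, where each list kept 1 to 6 genes, they became -1.003 (dorsal forebrain, 3 genes), -0.86 (midbrain, hindbrain and HOX, 2), -0.27 (roof plate, 3; eye field, 1), 0.54 (astrocyte, 2), -0.84 (neural crest, 2), -1.14 (mesenchyme, 5), -0.019 (adhesion, 6), -0.015 (FGF, 4) and 0.70 (immediate early, 4). With 10 counts in every library they became -0.34 (midbrain), -0.28 (roof plate), 0.12 (astrocyte) and 1.71 (metallothioneins, 2 genes). The DNA methylation list stood at 0.0046 by library size alone, 0.0089 with the replicate block and -0.061 to 0.025 without a replicate. NODAL, BMP and hedgehog stood at -0.0046 with 6 groups, -0.14 with the block and -0.42 to 0.084 without a replicate. Metallothioneins stood at 0.44 with the block and -0.24 to 0.28 without a replicate, where eye field ranged from -0.0094 to 0.36 and muscle from -0.22 to 0.69. Floors of 3 counts cover counting error only.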
